A study of Mus musculus with 32 samples.

Results

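Aqp4 and the other classical genes of the astrocyte were read out in frontal cortex (FCtx) of mice that drank ethanol and of matched controls. The members were the 10 genes Aqp4, Gfap, Slc1a2, Slc1a3, Glul, Aldoc, Gja1, S100b, Kcnj10 and Aldh1l1, taken by gene symbol from the annotated Illumina MouseRef-8 v2.0 table with every probe that carried the symbol. Of these, 9 genes with 13 probes were found among the 18138 symbols of the table, and Kcnj10 was not analysed here. After the filter on low signal, 9 probes of 8 genes were tested. Female F1 hybrids of C57BL/6J and FVB/NJ were used, which the labels give as C57BL/6J x FVB/NJ and the study's methods as both reciprocal crosses. The 20 ethanol-treated mice could choose between 20% ethanol and water for 3 h in the dark on each of 20 days and were sacrificed 20 h after the last session, and 12 mice were matched controls. Each mouse gave 1 array of total RNA from the dorsal part of the most rostral cortical slice, a slice that the methods describe as free of olfactory bulb. The study places the drinking in early adulthood, and neither the age in days nor the cross of each mouse is given in the sources used here.

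Astrocytes wrap synapses and blood vessels. Aquaporin 4 (Aqp4) is the water channel of their vascular endfeet, connexin 43 (Gja1) joins them through gap junctions, and the potassium channel Kir4.1 (Kcnj10) takes up potassium released by neurons. The transporters EAAT1 (Slc1a3, also GLAST) and EAAT2 (Slc1a2, also GLT-1) clear glutamate from the synapse, and glutamine synthetase (Glul) turns it into glutamine. Aldolase C (Aldoc) is the glycolytic aldolase of brain, S100b binds calcium, Aldh1l1 is a folate enzyme widely used to mark astrocytes, and Gfap is the intermediate filament that is typically induced in reactive astrocytes. In a tissue homogenate, fewer astrocytes and less RNA per astrocyte cannot be told apart.

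Both genes with several probes were read unevenly, so their probe sequences are shown, all in lower case because no part of them is singled out. The Slc1a2 table entries comprised 4 probes of 50 bases. The isoform probe placed at chr2:102621822-102621871 on the plus strand was above background on all 32 arrays, and so was the probe to sequence that the array annotation counts as shared by the transcripts, for which no position is listed. The probe at chr2:102618098-102618147 was above background on 8 arrays and another isoform probe on 0. The first 30 bases are printed for the 3 probes whose place relative to the coding sequence is not given, and the whole shared probe, which reads as coding sequence.

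Slc1a2 isoform probe, detected on 32 arrays: gaggcatagaggagctgtgtacacccgtga
Slc1a2 shared probe, detected on 32 arrays: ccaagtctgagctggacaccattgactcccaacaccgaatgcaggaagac
Slc1a2 single-transcript probe, detected on 8 arrays: ggtggttgtcagaactttaatggccttcag
Slc1a2 isoform probe, detected on 0 arrays: ttacccaggaggggggtgcgagggcggaga

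Aldh1l1 had 2 probes, a shared one at chr6:90544572-90544621 that was above background on all 32 arrays and an isoform probe at chr6:90521926-90521975 that was above background on 1. The genome build of these positions is not given in the sources used here.

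Aldh1l1 shared probe, detected on 32 arrays: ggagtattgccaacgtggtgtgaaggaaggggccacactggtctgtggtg
Aldh1l1 isoform probe, detected on 1 array: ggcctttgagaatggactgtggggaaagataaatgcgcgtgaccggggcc

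Treatment was tied to the chip that an array lay on. Chips 1 and 2 held 8 ethanol-treated mice each and chip 4 held 8 controls, and only chip 3 held both groups, with 4 ethanol-treated mice at its odd positions and 4 controls at its even positions. The arrays resembled each other closely, with correlations between 0.974 and 0.994 over all 496 pairs, and between 9480 and 11544 probes were above background on an array. The lowest number and the lowest median signal belonged to control mouse C66 on chip 4. Values below are normalised signals on a log2 scale, the test is limma's, p-values were adjusted over all 10187 tested probes, and an FDR of 1% was required for a call. Nothing in the labels says more of the replicates than that each was a different mouse.

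Aqp4 was the only member whose difference passed the test over all arrays, in a model without chip. In 20 ethanol-treated mice the Aqp4 signal ran from 9.08 to 10.25 with a median of 9.53, and in 12 controls from 8.56 to 9.85 with a median of 8.95. The groups overlapped, but all 20 ethanol-treated mice lay above the control median, 5 of them lay above the highest control, and 7 of 12 controls lay below the lowest ethanol-treated mouse. On the deposited linear scale the median intensity was 794 against 481. These intensities are not normalised, and the ethanol arrays tended to be brighter. The median signal of an array ran from 166 to 203 with ethanol and from 146 to 187 in controls. The means were 9.59 ± 0.33 (SD, n = 20) and 9.05 ± 0.34 (SD, n = 12), a log2 difference of 0.54 with an SE of 0.11, or 1.45-fold (adjusted p = 0.00083). The call was lost with chip as a block or with chip and array position in the model, for which the values are given with the chip comparisons.

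**Figure D1:**
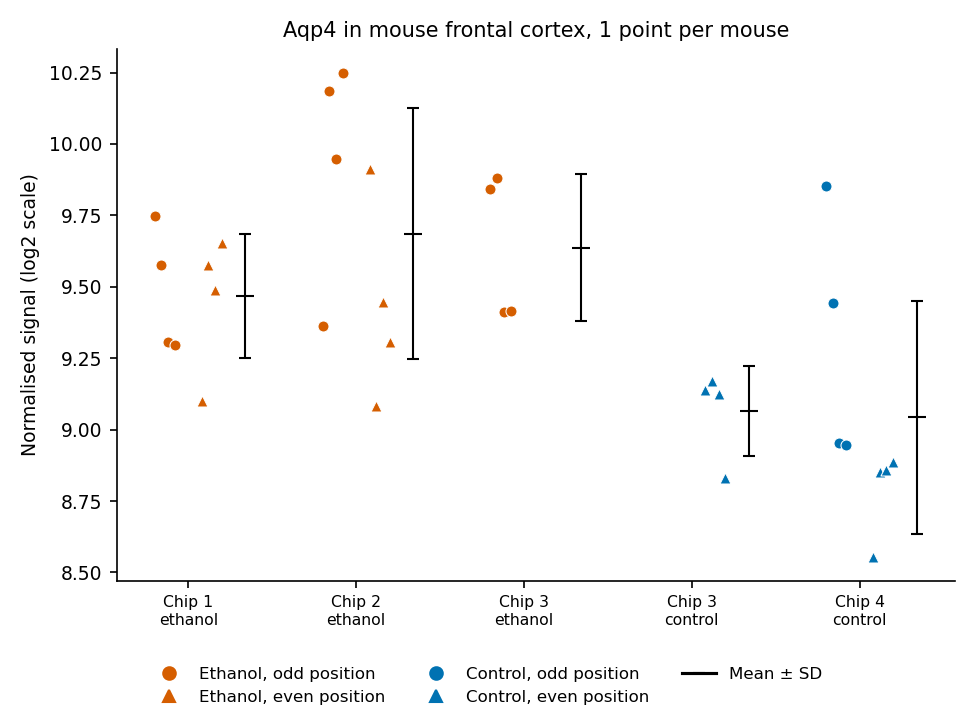
Normalised Aqp4 signal (log2 scale, vertical axis) of each mouse by chip and group (horizontal axis), with circles for odd and triangles for even array positions and black bars for mean ± SD. Ethanol-treated mice of chips 1 to 3 have means of 9.47, 9.69 and 9.64, and the controls of chips 3 and 4 have means of 9.07 and 9.04.

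Aqp4 was the only member called over all 32 arrays, as 1 of 8 tested genes, where 8.24% of all tested probes were called, 3.64% of them as higher and 4.59% as lower. Over the 8 genes, each read by its brightest probe, 4 differences lay above 0 and the median was 0.0033, next to -0.01 over all 7926 tested genes. With each array scaled by its median in place of quantile normalisation, the called probes split into 121 higher and 21 lower, against 371 higher and 468 lower here, and Aqp4 remained the only member called.

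**Figure D2:**
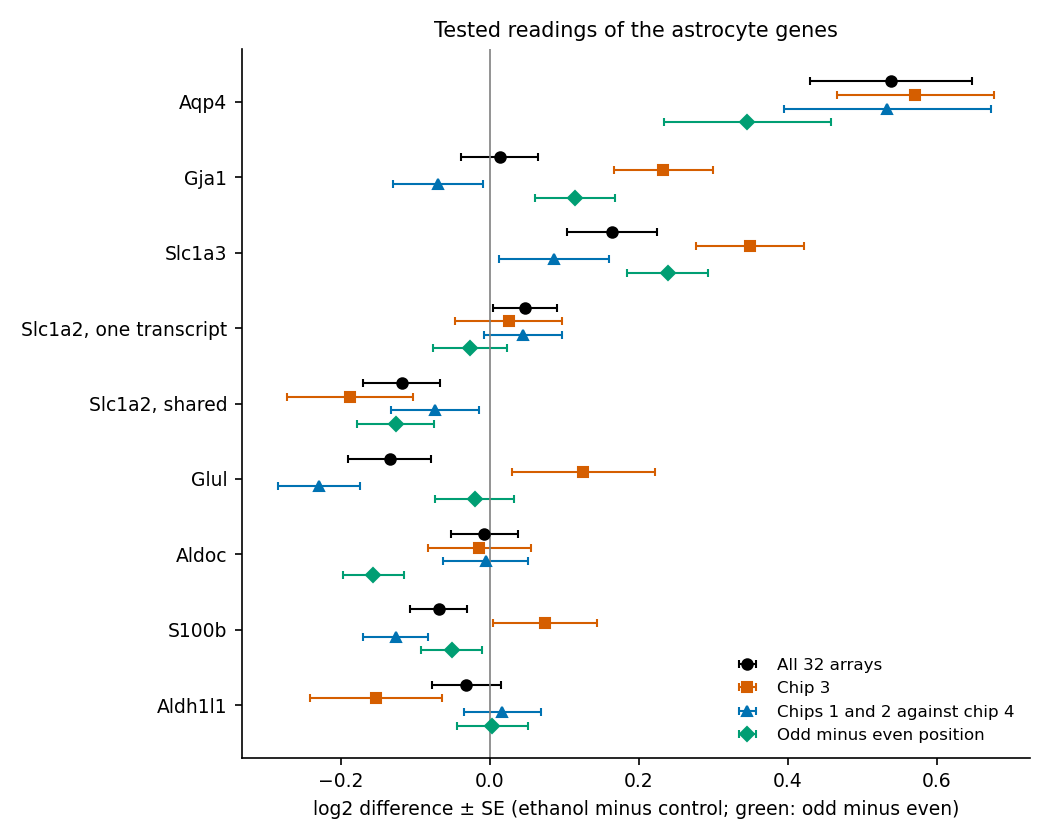
Log2 difference ± SE (horizontal axis) of the 9 tested probes (vertical axis) in 4 comparisons, of which the green diamonds compare odd with even array positions on chips 1, 2 and 4. Aqp4 stands at 0.54, 0.57 and 0.53 in the 3 ethanol comparisons and at 0.35 between positions, and Glul lies on opposite sides of 0 on chip 3 and between the other chips.

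Within chip 3, where both groups were hybridised together, Aqp4 read 9.84 in mouse A46, 9.88 in A47, 9.41 in A49 and 9.41 in A50. The controls of that chip read 9.14 in mouse C52, 9.17 in C54, 9.13 in C55 and 8.83 in C56. All 4 ethanol-treated mice lay above all 4 controls, which was also so for Slc1a3 and Gja1, and for 7.58% of all tested probes in this direction. The log2 difference of Aqp4 was 0.57 (SE 0.11, adjusted p = 0.00297). Without A46 it was 0.50 (adjusted p = 0.0107) and without A47 0.49 (adjusted p = 0.0135), in both cases short of the 1% FDR.

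Between the chips that held a single group, Aqp4 was higher by 0.53 in the 16 ethanol-treated mice of chips 1 and 2 than in the 8 controls of chip 4 (SE 0.14, adjusted p = 0.0058). All 16 lay above the median of chip 4, but the groups overlapped, because control C57 reached 9.85. The difference on chip 3 and the difference between the other chips were close, 0.04 apart with an SE of 0.25 (adjusted p = 0.944), an error that leaves room for a sizeable disagreement. By limma no member was called for such a disagreement, where 3.24% of all probes were, and 3 of 8 had an unadjusted p under 0.05. Aqp4 differed by -0.22 (SE 0.14, adjusted p = 0.49) between chips 1 and 2, both of ethanol-treated mice, and by 0.02 (SE 0.16, adjusted p = 0.95) between the controls of chips 3 and 4. By limma no member was called in these comparisons within a treatment, where 0.00982% and 4.08% of the probes were, and 1 and 2 of 8 had an unadjusted p under 0.05.

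Aqp4 also read differently by array position, short of the 1% FDR. On chips 1, 2 and 4, where odd and even positions held the same treatment, arrays at odd positions read 0.35 higher than arrays at even positions (SE 0.11, adjusted p = 0.0399). Among ethanol-treated mice of chips 1 and 2 the means were 9.71 at odd and 9.45 at even positions, and among the controls of chip 4 they were 9.30 and 8.79. On chip 3 the ethanol-treated mice were all at odd and the controls all at even positions, so that treatment and position cannot be told apart there. At even positions alone Aqp4 was higher by 0.52 in 8 ethanol-treated mice than in 8 controls (SE 0.10, adjusted p = 0.0149), and at odd positions alone it was higher by 0.39 in 12 than in 4 (SE 0.17, adjusted p = 0.136). In both subsets the groups lay on different chips, so that treatment and chip cannot be told apart there. With chip and position both in the model, 0.23 was left (SE 0.21, adjusted p = 0.789). This is the chip 3 difference less the position difference of the other chips. With chip alone as a fixed block the difference was 0.57 (SE 0.21, adjusted p = 0.122), and as a random block 0.55 (SE 0.13, adjusted p = 0.0171). Treatment varied within chip 3 only, so the fixed block repeats the chip 3 difference of the same 8 mice. Its SE is larger because it draws on the spread of all chips. The SD of Aqp4 was 0.26 with ethanol and 0.16 in controls on chip 3, and 0.22, 0.44 and 0.41 on chips 1, 2 and 4.

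Gja1, the gap junction channel, was not called over all arrays. Its signal ran from 12.15 to 12.58 with ethanol and from 12.14 to 12.70 in controls, a difference of 0.01 (SE 0.05, adjusted p = 0.89). On chip 3 the ethanol-treated mice A46, A47, A49 and A50 read 12.49, 12.49, 12.53 and 12.48 and the controls C52, C54, C55 and C56 read 12.37, 12.14, 12.20 and 12.35. The ethanol-treated mice of chip 3 were nearly identical and all above the controls, with a difference of 0.23 (SE 0.07, adjusted p = 0.0343) that was short of the 1% FDR. Between the other chips Gja1 lay the other way, by -0.07 (SE 0.06, adjusted p = 0.431), and the test of the difference between these comparisons gave 0.30 (SE 0.11, adjusted p = 0.0688).

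Of 14 further genes of the endfoot and its dystrophin complex, 7 were tested, with a median of -0.01 over all arrays. Of these, 1 was called higher and none lower, against 3.02% and 4.88% of all tested genes. Dtna, which encodes dystrobrevin alpha, a scaffold of the complex that anchors aquaporin 4, rose by 0.29 (SE 0.05, adjusted p = 0.000325). The table holds 4 probes of Dtna, and only the brightest tested one is given here. Its difference was 0.40 between chips 1 and 2 and chip 4 (adjusted p = 4.18e-06) but 0.05 on chip 3 (adjusted p = 0.748), and these estimates were 0.35 apart (SE 0.10, adjusted p = 0.0261), short of the 1% FDR. Of 10 other aquaporins, 2 were tested and neither was called: Aqp1, the water channel of the choroid plexus, differed by 0.01 (adjusted p = 0.976) and Aqp11, an intracellular aquaporin, by -0.05 (adjusted p = 0.378).

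Among the 3 glutamate genes of the member list, Slc1a3 had the smallest adjusted p over all arrays. It was not called over all arrays, at 0.16 (SE 0.06, adjusted p = 0.0534), with signals from 13.36 to 13.80 in ethanol-treated mice and from 13.10 to 13.82 in controls. On chip 3 mice A46, A47, A49 and A50 read 13.70, 13.64, 13.69 and 13.46, and controls C52, C54, C55 and C56 read 13.32, 13.37, 13.15 and 13.25. There the ethanol-treated mice lay above every control, and Slc1a3 rose by 0.35 (SE 0.07, adjusted p = 0.00592), which with Aqp4 made 2 of 8 genes called higher on this chip, against 1.55% of all probes. The call was lost without any of mice A46, A47, A49, C54, C55 or C56, with differences between 0.31 and 0.38.

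Slc1a3 also differed by array position. At odd positions of chips 1, 2 and 4 it was 0.24 higher than at even positions (SE 0.05, adjusted p = 0.00602), the only 1 of 8 genes called as higher at odd positions, against 1.74% of all probes. At odd positions alone ethanol-treated mice and controls differed by -0.02 (SE 0.07, adjusted p = 0.866), with means of 13.63 and 13.65. At even positions alone the difference was 0.19 (SE 0.06, adjusted p = 0.0787), with means of 13.47 and 13.27. Here too the groups lay on different chips in both subsets. Between chips 1 and 2 and chip 4 Slc1a3 differed by 0.09 (SE 0.07, adjusted p = 0.426).

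**Figure D3:**
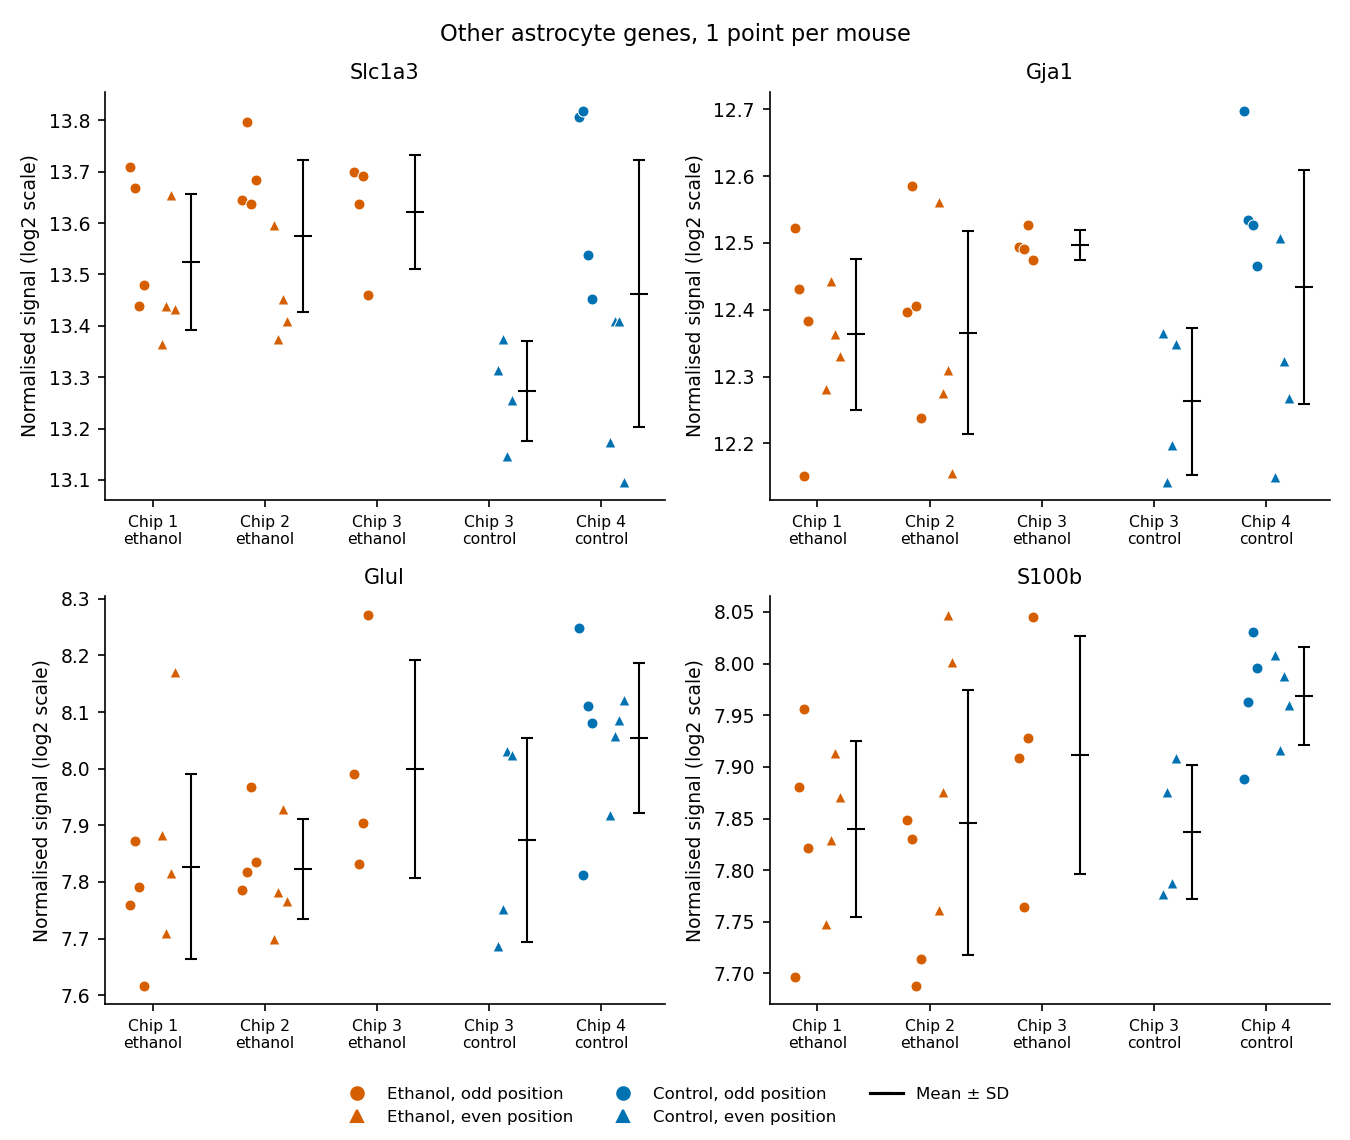
Normalised signal (log2 scale, vertical axes, not starting at 0) of Slc1a3, Gja1, Glul and S100b in each mouse by chip and group, with circles for odd and triangles for even positions and bars for mean ± SD. On chip 3 every ethanol-treated mouse lies above every control for Slc1a3 and Gja1, and chip 4 reads high for Glul and S100b.

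Slc1a2 gave different readings by probe. With the isoform probe the signal ran from 9.74 to 10.15 in ethanol-treated mice and from 9.79 to 10.09 in controls, a difference of 0.05 (SE 0.04, adjusted p = 0.47). The shared probe lay the other way, from 8.72 to 9.18 with ethanol and from 8.78 to 9.32 in controls, a difference of -0.12 (SE 0.05, adjusted p = 0.107). Neither probe was called in any comparison. The gap between both readings within an array, isoform probe minus shared probe, averaged 1.07 ± 0.14 (SD, n = 20) with ethanol and 0.91 ± 0.19 (SD, n = 12) in controls, 0.17 apart with p = 0.00988 in a two-sided permutation test with 100000 resamples. Within chip 3 the gap differed by 0.21 with p = 0.0857 in an exact two-sided permutation test, where 0.0286 is the smallest p that 4 against 4 mice allow, and between the other chips by 0.12 with p = 0.0918 in a two-sided permutation test. These 3 p-values are not adjusted, and the gap was looked at after both probes had been seen to differ. None of these tests took account of array position, and that over all arrays took none of chip. At odd positions the shared probe averaged 8.90 in 12 ethanol-treated mice and 8.84 in 4 controls, and the isoform probe 9.99 and 9.88. At even positions the shared probe averaged 8.93 in 8 ethanol-treated mice and 9.13 in 8 controls, and the isoform probe 9.98 and 9.97. The probe detected on 8 arrays differed by -0.03 and the probe never detected by -0.04, readings at background level.

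Glul gave estimates of opposite sign by chip. Over all arrays it ran from 7.62 to 8.27 with ethanol and from 7.69 to 8.25 in controls, a difference of -0.13 (SE 0.06, adjusted p = 0.0841). Between chips 1 and 2 and chip 4 it fell by 0.23 (SE 0.06, adjusted p = 0.00313), where 1 of 16 ethanol-treated mice was above the median of chip 4. On chip 3 the ethanol-treated mice A46, A47, A49 and A50 read 7.99, 7.83, 7.90 and 8.27 and the controls C52, C54, C55 and C56 read 7.69, 7.75, 8.03 and 8.02. These groups overlapped, and the difference was 0.13 (SE 0.10, adjusted p = 0.438). The comparisons stood 0.36 apart (SE 0.11, adjusted p = 0.0427), short of the 1% FDR. Between the chips of a single group, Aqp4 was thus 1 of 8 genes called higher, against 5.96% of all probes, and Glul 1 of 8 called lower, against 5.84%. The Glul probe read dim and passed background on 31 arrays. Its median intensity before normalisation was 240 in ethanol-treated mice and 236 in controls. By chip this median was 230.9 on chip 1, 234.5 on chip 2 and 235.9 on chip 4. The fall of Glul between these chips was not called with median scaling.

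Of 18 other genes of glutamate, glutamine and potassium handling, 12 were tested, with a median of -0.01 over all arrays. Of these, 1 rose and 1 fell, against 3.02% and 4.88% of all tested genes. Slc7a11, the cystine-glutamate exchanger that exports glutamate, rose by 0.22 (SE 0.05, adjusted p = 0.00388), by 0.34 on chip 3 (adjusted p = 0.0099) and by 0.18 between the other chips (adjusted p = 0.0445). Atp1b2, a sodium pump subunit of glia, fell by 0.26 (SE 0.05, adjusted p = 0.000814), with -0.29 on chip 3 (adjusted p = 0.0303) and -0.24 between the other chips (adjusted p = 0.00699). Slc7a11 and Atp1b2 kept their direction in both settings.

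The metabolic and marker genes did not pass the test. Aldoc ran from 12.78 to 13.40 in ethanol-treated mice and from 12.99 to 13.27 in controls, a difference of -0.01 (SE 0.05, adjusted p = 0.937), and it was lower by 0.16 at odd than at even positions (SE 0.04, adjusted p = 0.0137). S100b ran from 7.69 to 8.05 and from 7.78 to 8.03, a difference of -0.07 (SE 0.04, adjusted p = 0.217), with 0.07 on chip 3 (adjusted p = 0.539) and -0.13 between the other chips (SE 0.04, adjusted p = 0.0359). The S100b probe read as dim as that of Glul, though above background on all 32 arrays. Its median intensity before normalisation was 241.5 with ethanol and 221.2 in controls. The shared probe of Aldh1l1 ran from 8.35 to 8.82 and from 8.51 to 8.82, a difference of -0.03 (SE 0.05, adjusted p = 0.688), and its isoform probe stayed at background, with 0.05 (adjusted p = 0.407 over all probes of the array).

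Gfap was near the detection limit. Its probe passed background on 15 of 20 ethanol-treated and 6 of 12 control arrays and was therefore not tested with the others. The mean was 7.70 ± 0.12 (SD, n = 20) with ethanol and 7.65 ± 0.11 (SD, n = 12) in controls. In a fit over all probes of the array the difference was 0.06 (SE 0.04, adjusted p = 0.524) at a signal barely above background. Of 27 other genes of reactive astrocytes, 10 were tested and none was called over all arrays by limma, 2 having an unadjusted p under 0.05, with a median of 0.02. The largest difference among them was that of Synm, an intermediate filament protein, at 0.38 (SE 0.10, adjusted p = 0.0102), and Vim, the filament partner of Gfap, differed by 0.05 (adjusted p = 0.582).

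Among 43 further astrocyte genes, 31 were tested, of which 2 rose, 2 fell and 27 were not called over all arrays, or a median of 0.02 with 20 above 0. Over all 7926 tested genes 3.02% were called higher and 4.88% lower. Apoe, the main apolipoprotein of brain, rose by 0.26 (SE 0.05, adjusted p = 0.000524), with 0.22 on chip 3 (adjusted p = 0.0443) and 0.29 between the other chips (adjusted p = 0.00177). Acsbg1, an acyl-CoA synthetase, rose by 0.23 (SE 0.06, adjusted p = 0.00387), but stood at -0.05 on chip 3 and 0.35 between the other chips, a disagreement of 0.41 (SE 0.10, adjusted p = 0.0072). It has 2 probes in the table, of which the brightest tested one is given. The metallothioneins Mt1 and Mt3, which bind zinc and copper, fell by 0.24 (SE 0.04, adjusted p = 0.000238) and 0.22 (SE 0.04, adjusted p = 0.000906). Mt1 stood at -0.22 on chip 3 (adjusted p = 0.0459), whereas Mt3 stood at -0.04 there (adjusted p = 0.763).

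**Figure D4:**
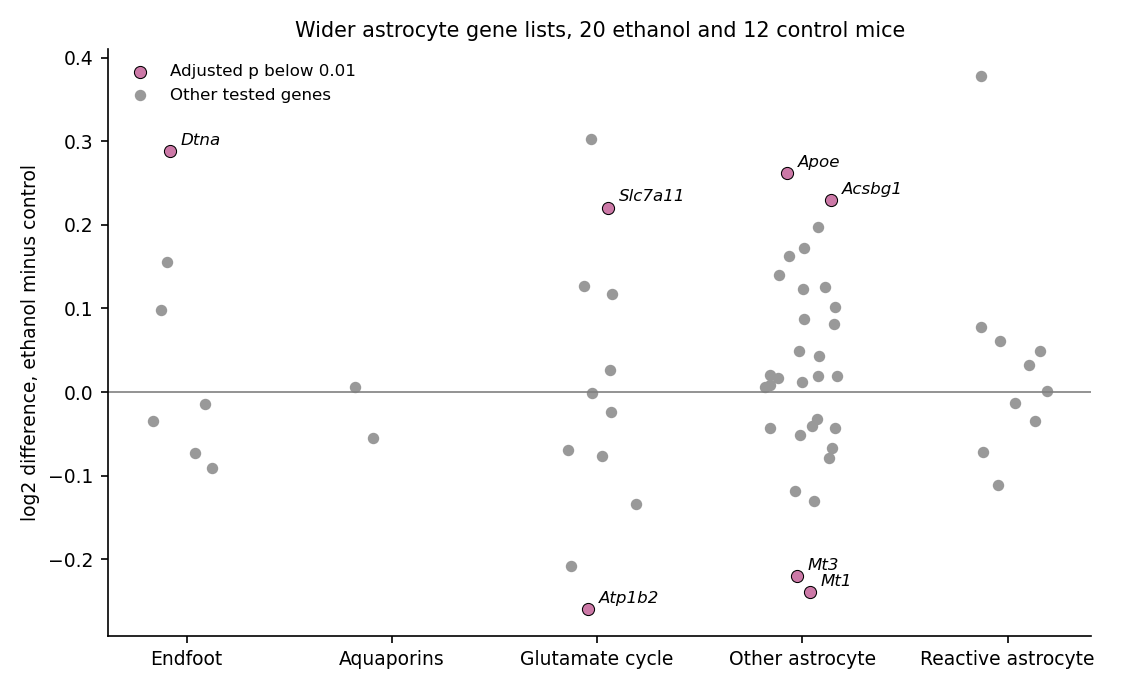
Log2 difference between 20 ethanol-treated and 12 control mice (vertical axis) of each tested gene of 5 wider lists (horizontal axis), with pink points for genes at an adjusted p below 0.01. The 7 named genes are 4 that rose by 0.22 to 0.29 and 3 that fell by 0.22 to 0.26, and each list otherwise spreads around 0.

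Markers of other tissue moved beside these genes. Of 10 olfactory bulb markers, 8 were tested, and on chip 3 their mean signal was 9.16 to 9.41 in the 4 ethanol-treated mice and 8.34 to 8.93 in the 4 controls. 5 of these 8 were called higher there, against 1.55% of all tested probes, with a median difference of 0.54, and at odd positions of the other chips all 8 read higher than at even positions, by a median of 0.32. Of 12 markers of choroid plexus and meninges, 4 were tested, and 3 were called higher on chip 3, against 1.55% of all tested probes. The mean signal of the 4 there was 9.65 to 9.93 with ethanol and 9.32 to 9.42 in controls. These 4 genes were Dcn, Igf2, Slc6a13 and Lum. Ttr, the defining choroid plexus marker, was among the 7 listed genes that did not pass the detection filter. The others were Kl, Folr1, Clic6, Otx2, Col1a1 and Col1a2, and Kcnj13 was not found in the table. The list is therefore no reading of Ttr or of these other genes. Of 12 oligodendrocyte markers, 11 were tested, and on chip 3 all 11 read lower with ethanol, 2 of them called, against 1.79% of all tested probes called lower, with a median difference of -0.37. Over all 32 arrays none of these 3 lists had a called gene by limma, with 0, 0 and 2 genes at an unadjusted p under 0.05 and median differences of 0.17, 0.05 and -0.06. Between chips 1 and 2 and chip 4, where Aqp4 differed by 0.53, the median of the olfactory bulb list was 0.04. Of 10 markers of cortical neurons, the labelled tissue, 5 were tested. Of these, 2 were called lower with ethanol over all arrays (median -0.09), against 4.88% of all tested genes. Between chips 1 and 2 and chip 4, 2 were called lower (median -0.17), against 6.45% of all tested genes. The mean signal of this list was 10.57 to 10.82 in ethanol-treated mice and 10.72 to 10.91 in controls. Of 10 general neuron markers, 7 were tested and 1 was called lower over all arrays (median -0.0069), against 4.88% of all tested genes. The mean signal of the general list was 12.48 to 12.75 with ethanol and 12.55 to 12.81 in controls. The part of these neuronal lists in the Aqp4 difference was not tested.

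Across the 32 mice, with values centred within each group of each chip, the mean of the olfactory bulb list correlated with Gja1 (Pearson's r = 0.749, Spearman's rho = 0.692), Slc1a3 (r = 0.698, rho = 0.614) and Aqp4 (r = 0.543, rho = 0.436). Without the 2 mice farthest from the median of the list, C66 and C63, r was 0.68, 0.592 and 0.495. The other tested probes ran from r = -0.401 for Aldoc and -0.327 for the shared probe of Slc1a2 to 0.00566 for Aldh1l1. The choroid plexus and meninges list, read by Dcn, Igf2, Slc6a13 and Lum only, correlated with Aqp4 (r = 0.72, rho = 0.664, and r = 0.524 without centring). The other members ran from r = -0.592 for Aldoc to 0.612 for Slc1a3 with centring. Aqp4 also followed the mean of 11 microglia markers with centring (r = 0.621, rho = 0.555), but without centring r was 0.124 (rho = 0.103). Of this list limma called no gene on chip 3 (2 at an unadjusted p under 0.05). Over all 32 arrays the mean of the microglia list ranged from 8.56 to 8.76 with ethanol and from 8.61 to 8.78 in controls. The neuron list ran against Slc1a3 (r = -0.634, rho = -0.61), Gja1 (r = -0.584, rho = -0.676) and Aqp4 (r = -0.42, rho = -0.405). Without centring r was -0.708, -0.601 and -0.452. For the olfactory bulb list with Gja1, Slc1a3 and Aqp4 it was 0.753, 0.732 and 0.545 without centring. The arrays share chips, positions and a normalisation, so that these values are a description. The part of neighbouring tissue in the chip 3 differences of Aqp4, Slc1a3 and Gja1 was not tested.

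**Figure D5:**
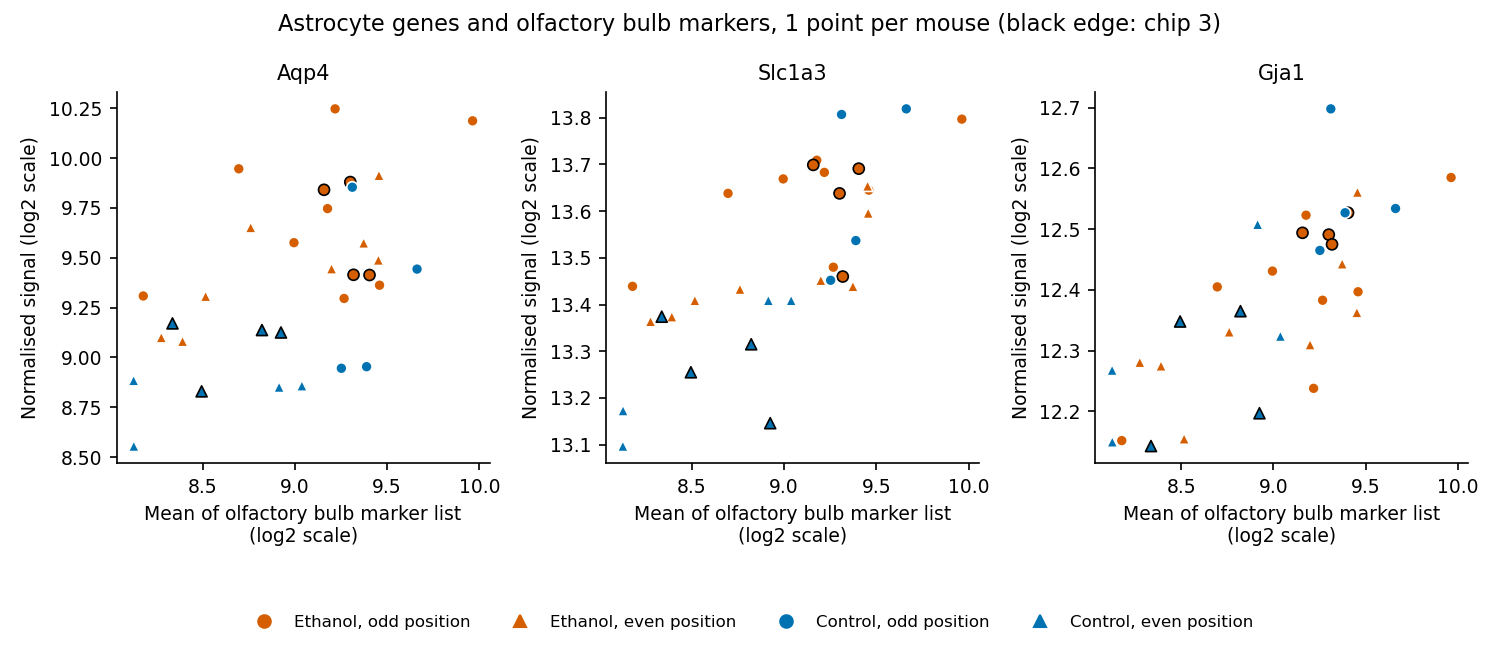
Normalised signal of Aqp4, Slc1a3 and Gja1 (log2 scale, vertical axes) against the mean of 8 olfactory bulb markers (log2 scale, horizontal axes) in each mouse, with orange for ethanol-treated and blue for control mice, circles for odd and triangles for even positions, and black edges for chip 3. All 3 genes run higher where the marker mean is higher, and the chip 3 controls, with markers at 8.34 to 8.93, lie below every ethanol-treated mouse of their chip.

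Among all tested genes, those most like Aqp4 across the 32 centred arrays were Rrp1b (r = 0.922, rho = 0.904), Ppap2b (r = 0.92, rho = 0.883), Mtap1b (r = 0.881), LOC100048721 (r = 0.877) and 5330439J01Rik (r = 0.872). Rrp1b is a nucleolar protein of ribosomal RNA processing, Ppap2b a lipid phosphate phosphatase and Mtap1b a microtubule-associated protein. Ppap2b is also on the list of further astrocyte genes. Without centring the nearest were Ppap2b (r = 0.885), Cacna2d1 (r = 0.878), 6430548M08Rik (r = 0.876), Gpd2 (r = 0.875) and LOC100048721 (r = 0.872). Rrp1b and Ppap2b were not called for ethanol, at 0.11 (adjusted p = 0.194) and 0.17 (adjusted p = 0.136). Centred values hold no difference between the groups. Of the members, Slc1a3 was nearest to Aqp4 (r = 0.748, rank 99 of 7925), followed by Gja1 (r = 0.58, rank 374), while S100b (r = -0.533) and Aldoc (r = -0.444) ran against it. The 28 pairs among the 8 genes ranged from -0.533 to 0.748 with a median of -0.0054, and 14 of them lay above 0.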

How the data were processed

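RNA from FCtx was extracted, amplified and hybridised by the authors to Illumina MouseRef-8 v2.0 BeadChips, 1 array per mouse, with groups taken from the sample titles. The deposited table holds non-normalised bead intensities, with the detection p-value that the deposited file gives per probe and array, and bead standard errors and bead numbers as other deposited columns. Per the labels the authors used lumi and limma; their versions, the background setting of the scanner software and the build of the probe positions are not given in the sources used here. From the intensities, a variance-stabilising transformation after the method of lumi was recomputed, using both bead columns, and the 32 arrays were then quantile normalised. Of 25697 probes, 10187 that passed detection (p under 0.01) on 24 arrays or more were tested with limma 3.58.1 in R 4.3.3, checked on simulated data, with Benjamini-Hochberg adjustment over all of them; the brightest tested probe stands for a gene in lists. Quantile normalisation fixes every array to the same distribution, so differences are relative to the other probes. An array has no read depth, and the number of mice limits the precision. Chip and position were read from the array names in the labels, and the study's methods say that each batch of extracted RNA held both groups, without saying which mice shared a batch. Members, gene lists and tests were chosen with earlier results of these data known. All members are named with every probe; of the wider lists up to 4 called genes in each direction, and for Aqp4 the 5 genes of highest correlation, with and without centring. Symbols are those of the array annotation. The sequence of 1 further member probe is not reported here.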

Additional observations from a re-analysis of the deposited data

Results flagged for a closer look

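In 3 of 45 sets of readings, each 1 probe in the mice of 1 group on 1 chip, a single mouse stood apart from the others by Dixon's test, which by chance marks about 1 in 20 such sets. Control mouse C56 on chip 3 read 8.83 for Aqp4 against 9.13 in the nearest control of that chip and 9.17 in the highest, a gap of 0.866 of the range of 4 mice. Leaving C56 out did not end the call of Aqp4 on chip 3. Ethanol-treated mouse A34 on chip 2, which had the highest Aqp4 signal of all, read 8.77 with the shared probe of Slc1a2 against 8.88 in the nearest of 8 mice, a gap of 0.547 of the range. Control mouse C62 on chip 4 read 8.69 with the shared probe of Aldh1l1 against 8.59 in the nearest of 8 mice, a gap of 0.538 of the range.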

How the results depend on the processing

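No paired analysis was possible because the mice of both groups carry different numbers in the labels. Over all arrays 1 member (Aqp4) was called. It was 2 (with Slc1a3) at an FDR of 10% with at least 1.1-fold, and 0 with chip as a fixed block, with chip as a random block, with chip and position, and at odd or at even positions alone, the last 2 settings being chosen after seeing the data and using fewer mice. On chip 3 the 2 members became 0 with a normexp background, where no probe of the array was called, and 1 with median scaling, and leaving out 1 mouse at a time gave 0 to 2. Aqp4 with a normexp background stood at 0.71 (adjusted p = 0.0299). Between chips 1 and 2 and chip 4 the 2 members became 0 with median scaling, with Aqp4 at 0.63 (adjusted p = 0.0118), and 1 (Glul) over all probes of the array. Between positions the single member became 0 with normexp, median scaling or all probes, and 3 with the wider threshold, which also gave 2 (Glul and Gja1) for the difference between chip 3 and the other chips. The cause of these moves was not tested where the setting does not show it. Aqp4 kept its direction in all of these settings.

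Every tested gene except Aqp4 changed sign in some setting, Slc1a3, Glul and the shared probe of Slc1a2 among them. Over all arrays median scaling gave Aldoc 0.046 and Aldh1l1 0.021, chip as a fixed block gave Glul 0.13 and S100b 0.075, position as a covariate gave Aldoc 0.027 and Gja1 -0.027, and chip with position gave Glul 0.15, Aldoc 0.14 and S100b 0.13. Aldoc was 0.00010 with array weights and 0.0015 without mouse C66. At odd positions alone the shared probe of Slc1a2 was 0.061, Slc1a3 -0.025, Aldoc 0.029 and Gja1 -0.13, and at even positions alone Aldoc was 0.025. Between chips 1 and 2 and chip 4 median scaling gave the shared probe of Slc1a2 0.044, Aldoc 0.092 and Gja1 0.028, and between positions the isoform probe of Slc1a2 0.051. On chip 3, leaving out 1 mouse at a time, Aldoc ran from -0.056 without A47 to 0.029 without A46, above 0 also without C56, and the isoform probe of Slc1a2 from -0.0080 without C52 to 0.084 without C54, below 0 also without A47. With median scaling the median difference of all tested probes was 0.044 over all arrays, -0.02 on chip 3 and 0.074 between the other chips. With quantile normalisation it was -0.0033, -0.00066 and -0.0067.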

Other observations

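On chip 3, where 1.55% of all tested probes were called higher, the wider lists gave 2 of 7 endfoot genes, 1 of 2 other aquaporins, 2 of 12 genes of glutamate handling, 2 of 10 genes of reactive astrocytes and 0 of 31 further astrocyte genes (9 of them at an unadjusted p under 0.05 in either direction) called higher by limma, with medians of 0.05, 0.11, 0.01, 0.09 and 0.02. Slc7a11 was among them, and the others are named here after their values had been seen. These were Dag1, the dystroglycan that binds the endfoot to the basement membrane (0.41, adjusted p = 0.00445), Gjb6, the connexin 30 of astrocytes (0.40, adjusted p = 0.00575), Aqp1 (0.39, adjusted p = 0.0065), Synm (0.52, adjusted p = 0.00289), Sphk1, a sphingosine kinase (0.39, adjusted p = 0.00923), and Gad1, which makes GABA in interneurons (0.58, adjusted p = 0.00105). Between chips 1 and 2 and chip 4 they stood at 0.08, -0.25, -0.13, 0.33, -0.08 and 0.20, of which that of Gjb6 was called as lower (adjusted p = 0.00525). The Gjb6 estimates were 0.64 apart (SE 0.11, adjusted p = 0.000703). At odd against even positions of the other chips Dag1 read 0.43 higher (adjusted p = 0.000624) and Synm 0.50 higher (adjusted p = 0.000974). Neither Dag1 nor Synm was called over all 32 arrays. Dag1, Aqp1, Synm, Sphk1 and Gad1 have several probes each in the table, and only the brightest tested one is given.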
